A study of Mus musculus with 6 samples.

Results

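AP-1 and EGR immediate early transcription factors were measured by RNA sequencing in the mouse T lymphoma line EL4 after exposure to an inhibitor of the histone deacetylase HDAC3. The 10 genes were taken by symbol, not by their values, from a table of 51912 Ensembl mouse genes: Jun, Junb, Jund, Fos, Fosb, Fosl2, Atf3, Batf, Egr1 and Egr2. Each symbol matched 1 row. There were 3 vehicle libraries and 3 RGFP966 libraries, the latter from cells kept for 24 h with the HDAC3 inhibitor RGFP966 at 10 µM. All cells were labelled wild type and came from this 1 line. Nothing in the labels ties a library to its own culture, so p-values measure the spread between these libraries, which may be technical.

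AP-1 is a family of dimers. JUN proteins pair through a leucine zipper with each other or with FOS proteins, and bind short palindromic DNA sites on which BATF and ATF3 also act. EGR1 and EGR2 are zinc finger proteins that bind GC-rich sites. In T cells, signals from the antigen receptor through RAS, MAP kinases and the serum response factor switch many of these genes on within minutes and without new protein synthesis, hence the name immediate early genes. They then help to turn on cytokine and activation genes, or, for EGR2, genes that restrain the response.

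Promoter sequences are shown first because members of the family moved in opposite directions and these are the stretches next to their starts. RefSeq promoters (GRCm38.p6) were found for 9 of the 10 members, not for Egr1. Each line below gives the bases before the gene's RefSeq start, 5′ to 3′, up to 250 of them and cut where an exon of any annotated transcript begins. For Fosl2 the whole window lies in annotated exon and none is printed. The windows of Jund and of the 5 starts of Egr2 were searched but are not printed. The Jund window ends at 70697738 on chromosome 8, ahead of the annotated gene start at 70698949. Capitals mark 3 kinds of match: the core TGACG of the cyclic AMP response element, the element TGACATCA, and the EGR site GCGTGGGCG or GCGGGGGCG.
Jun, chr4:95052223-95052472, minus strand: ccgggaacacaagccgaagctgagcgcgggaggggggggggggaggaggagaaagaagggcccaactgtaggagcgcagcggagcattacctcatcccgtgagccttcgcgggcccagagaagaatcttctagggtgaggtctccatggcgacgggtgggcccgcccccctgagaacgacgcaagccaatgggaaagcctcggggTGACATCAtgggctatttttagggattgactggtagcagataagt
Junb, chr8:84978749-84978998, minus strand: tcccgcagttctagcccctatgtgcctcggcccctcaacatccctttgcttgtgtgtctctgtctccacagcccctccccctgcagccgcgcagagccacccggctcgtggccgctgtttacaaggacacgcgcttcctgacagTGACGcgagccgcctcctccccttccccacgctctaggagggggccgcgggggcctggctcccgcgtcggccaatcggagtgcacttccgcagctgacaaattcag
Fos, chr12:85473640-85473889, plus strand: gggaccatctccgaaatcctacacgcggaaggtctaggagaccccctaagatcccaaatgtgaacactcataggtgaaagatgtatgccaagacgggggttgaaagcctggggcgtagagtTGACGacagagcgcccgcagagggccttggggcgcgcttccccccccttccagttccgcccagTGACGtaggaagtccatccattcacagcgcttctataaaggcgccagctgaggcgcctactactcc
Fosb, chr7:19310052-19310295, minus strand: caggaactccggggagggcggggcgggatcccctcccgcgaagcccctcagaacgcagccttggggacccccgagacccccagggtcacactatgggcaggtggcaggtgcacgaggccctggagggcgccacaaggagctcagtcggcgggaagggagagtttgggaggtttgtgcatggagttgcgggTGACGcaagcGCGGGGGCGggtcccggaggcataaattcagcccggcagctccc
Atf3, chr1:191183341-191183583, minus strand: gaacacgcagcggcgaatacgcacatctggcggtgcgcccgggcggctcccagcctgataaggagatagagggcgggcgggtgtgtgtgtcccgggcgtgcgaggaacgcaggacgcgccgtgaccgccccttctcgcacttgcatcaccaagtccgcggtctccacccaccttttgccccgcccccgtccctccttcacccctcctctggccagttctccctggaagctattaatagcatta
Batf, chr12:85686470-85686668, plus strand: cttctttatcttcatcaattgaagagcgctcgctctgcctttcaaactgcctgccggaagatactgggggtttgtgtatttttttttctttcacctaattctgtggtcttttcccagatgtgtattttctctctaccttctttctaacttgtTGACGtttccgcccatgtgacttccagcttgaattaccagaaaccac

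The motifs were chosen with the sequences and results in view, and both strands of the full 250 bases before each start were searched. The core TGACG was found in 6 of the 9 members with a sequence (Junb, Fos, Fosb, Atf3, Batf and Egr2) and in 17.8% of all 32851 promoters in the table. In Atf3 the core lies in the stretch that is not printed. A member was counted if any of its starts matched, and Egr2 has 5 starts. The shares given here are over single promoters, so the 2 are not alike. The element TGACATCA was found in Jun, 45 bases before the start at its far end, and in 2.93% of promoters. An EGR site was found in Fosb and Fosl2, against 3.06% of promoters. The CArG box, which the serum response factor binds, was found at 4 of the 5 starts listed for Egr2, in 0 other members and in 1.47% of promoters. Windows of neighbouring Egr2 starts overlap and share a box, so the 4 are not separate boxes. Sequence more than 250 bases before a start was not searched, nor was any of Egr1, so a box there would be missed. The AP-1 site, TGACTCA or its reverse complement, was found in 0 members and 4.46% of promoters. The full element TGACGTCA, which contains the core, was found in 0 members and 1.55% of promoters. These matches are letters in a window and say nothing of binding. Among the 5 that changed, the core was found in Junb and Batf, which fell, and in Atf3, which rose. It was not found in Jun or Fosl2, which rose, and the Fosl2 window lies wholly in annotated exon. A link between the core and the direction of change was not tested.

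Library totals ran from 12935443 to 16451017 counts and were on average 13.3% lower with RGFP966. All 11 T cell markers had a mean above 1 CPM (counts scaled to a library total of 1e6), with sums of 2789 to 2827 in vehicle and 2893 to 2977 CPM in RGFP966 libraries. The submitters' extraction text speaks of retinas, and 2 of 10 retina markers exceeded 1 CPM, with sums of 4.33 to 4.94 CPM over all libraries and Gnat1 and Crx at 0 counts. Myeloid markers summed to 12.2 to 13.6 CPM, with Adgre1 and Fcgr3 at 0. Fibroblast markers summed to 44.0 to 44.7 CPM in the vehicle group and 54.0 to 57.2 CPM after RGFP966; 1 of the 6 exceeded 1 CPM and Col3a1 and Pdgfrb were at 0. The part of that difference in the results below was not tested. Hdac3 itself measured 89.0 ± 3.83 (SD, n = 3) CPM in the vehicle group and 85.8 ± 2.49 CPM after RGFP966 (log2 fold change -0.05, adjusted p = 0.482).

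The members answered the inhibitor in different directions. Of 8 members with enough reads to test, Atf3, Jun and Fosl2 rose, Junb and Batf fell, and Fos, Fosb and Egr1 did not pass the test. Over all 13484 genes tested, 23.3% were called (11.4% higher and 11.9% lower) by edgeR's quasi-likelihood test at an adjusted p under 0.05. Atf3 passed the filter on low counts only through its RGFP966 libraries, so the 5 called of 8 are a description and not a measure of the family. The median log2 fold change of the 8 was -0.18, against -0.00 over all genes tested. Jund and Egr2 were too low to test. The groups did not overlap in 3 of the 8 (Jun and Atf3 above, Junb below), and in 36.3% of all genes tested. With upper-quartile factors 59.1% of the calls over all genes were higher, against 49.1%, and 3 members were again called higher and 2 lower. In RNA from whole cultures, fewer cells of a kind and less RNA per cell cannot be told apart.

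**Figure D1:**
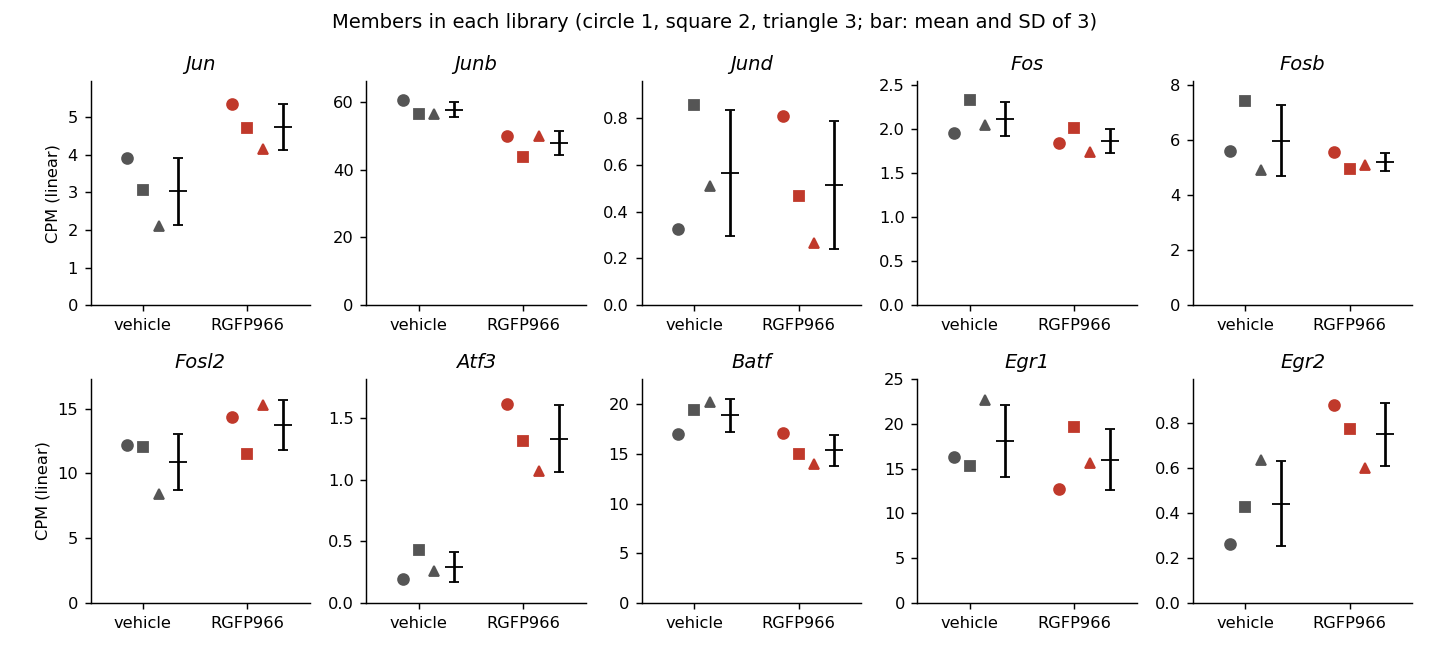
Level of each of the 10 members in every library (CPM on a linear axis from 0; circles, squares and triangles are libraries 1, 2 and 3 of a group; the bar gives the mean and SD of 3 libraries). Atf3 and Jun lie higher in all RGFP966 libraries than in any vehicle library and Junb lower; the groups overlap in the other 7.

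Levels between genes were compared per kilobase of exon, as CPM per kb. In vehicle libraries Junb was highest at 25.1 ± 1.01 (SD, n = 3) CPM per kb, followed by Batf at 13.4 ± 1.20 and Egr1 at 4.04 ± 0.891, and the ranges of these 3 genes did not touch. Fosl2 (1.12 CPM per kb), Fosb (0.957), Jun (0.948) and Fos (0.896) formed a group in which each overlapped its neighbour. Jund (0.338 CPM per kb), Atf3 (0.136) and Egr2 (0.130) were lowest and also overlapped in turn. With RGFP966 the first 3 places were the same, at 20.8, 10.9 and 3.57 CPM per kb. Jun (1.49 CPM per kb) and Fosl2 (1.42) then lay above Fosb (0.834) and Fos (0.792), without overlap between Fosl2 and Fosb. Atf3, at 0.619 CPM per kb, overlapped Fos and lay above Jund (0.308) and Egr2 (0.221). Between the JUN genes, every Junb value lay above every Jun value in both groups.

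Among the JUN genes, Jun rose and Junb fell. Jun (chromosome 4, 95049034 to 95052222, minus strand, ENSMUSG00000052684), a gene of 1 exon that encodes the founding AP-1 subunit, measured 3.91, 3.06 and 2.11 CPM in vehicle libraries 1 to 3. In RGFP966 libraries 1 to 3 it measured 5.36, 4.72 and 4.15 CPM. All RGFP966 libraries lay above all vehicle libraries, with vehicle library 3 lowest, and groups stood apart in this direction in 17.8% of all genes tested. The log2 fold change of Jun was 0.65 ± 0.21 (SE; 95% interval 0.22 to 1.07; adjusted p = 0.0199), a rise of 56.9% in mean CPM. The call was lost without vehicle library 3 (0.45, adjusted p = 0.149), without RGFP966 library 1 (0.55, adjusted p = 0.109) and by DESeq2 (Wald test, 0.65, adjusted p = 0.0606); the adjusted p ran from 0.00478 to 0.149 over 14 alternatives. The antisense gene Junos overlaps 7.28% of its exon, and the library kit named in the labels does not mark strand; Junos held 1.53 to 2.69 CPM, with overlapping groups.

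Junb (chromosome 8, 84974484 to 84978718, minus strand, ENSMUSG00000052837), whose protein pairs with FOS and BATF and often tempers JUN, measured 60.4, 56.4 and 56.3 CPM in vehicle libraries. With RGFP966 it measured 49.97, 43.7 and 49.8 CPM. Every RGFP966 library lay below every vehicle library, as in 18.5% of genes tested, and library 2 was lowest. The log2 fold change of Junb was -0.27 ± 0.06 (SE; 95% interval -0.39 to -0.15; adjusted p = 0.000685), a change of -17.1% in mean CPM. The call held in all 14 alternatives (adjusted p from 0.000179 to 0.0298). With an offset for GC content, chosen after seeing the data, the change was -0.17 (adjusted p = 0.0298). The longest Junb transcript is 62.6% G or C, and among the 468 tested genes of 60% or more 20.5% were lower and 6.62% higher. Prdx2, on the other strand, overlaps 7.52% of Junb exons and measured 82.8 to 92.6 CPM in the vehicle group and 75.7 to 80.9 CPM after RGFP966; its part in the Junb values was not tested.

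Jund (ENSMUSG00000071076), which encodes the JUN protein usually made at a steady level, was nearly without reads. It had 5, 14 and 8 counts in vehicle libraries and 11, 6 and 4 in RGFP966 libraries, and the groups overlapped. Summed, these are 27 counts (exact Poisson 95% interval 17.8 to 39.3) and 21 counts (13.0 to 32.1); the intervals cover counting error only. No difference was detectable at this depth. The annotated antisense gene Gm11175 overlaps 52.6% of the Jund exon and had 0 counts in every library. How reads lying in both genes were counted is not given, and the part of the overlap in the low Jund counts was not tested.

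Among the FOS genes, Fosl2 rose narrowly while Fos and Fosb did not pass the test. Fosl2 (chromosome 5, 32135801 to 32157842, plus strand, ENSMUSG00000029135), which encodes FRA-2, measured 12.2, 12.04 and 8.43 CPM in vehicle libraries. In RGFP966 libraries it measured 14.4, 11.5 and 15.3 CPM. The groups overlapped: RGFP966 library 2 lay below vehicle libraries 1 and 2, and vehicle library 3 was lowest of all. Its log2 fold change was 0.34 ± 0.13 (SE; 95% interval 0.08 to 0.59; adjusted p = 0.0475), from 10.9 to 13.7 CPM. Without vehicle library 3 it was 0.19 (adjusted p = 0.324), without RGFP966 library 1 0.31 (adjusted p = 0.162), without RGFP966 library 3 0.26 (adjusted p = 0.236) and in the DESeq2 Wald test 0.34 (adjusted p = 0.124). Over its 14 alternatives the adjusted p ran from 0.0112 to 0.324.

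Fos (chromosome 12, 85473890 to 85477273, plus strand, ENSMUSG00000021250), the most rapidly induced partner of JUN, measured 1.95, 2.32 and 2.04 CPM in vehicle libraries. With RGFP966 it measured 1.84, 2.01 and 1.74 CPM, and the groups overlapped. Its log2 fold change was -0.18 ± 0.28 (SE; 95% interval -0.74 to 0.37; adjusted p = 0.697). Fosb (chromosome 7, 19302696 to 19310051, minus strand, ENSMUSG00000003545), a FOS relative that can lack the activation domain in its short form, measured 5.60, 7.40 and 4.92 CPM in vehicle libraries. Its RGFP966 libraries measured 5.58, 4.96 and 5.09 CPM, within the vehicle range. The log2 fold change of Fosb was -0.20 ± 0.17 (SE; 95% interval -0.54 to 0.14; adjusted p = 0.439), and the value was -0.02 without vehicle library 2, its highest (adjusted p = 0.973, the highest over 14 alternatives, which began at 0.243).

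**Figure D2:**
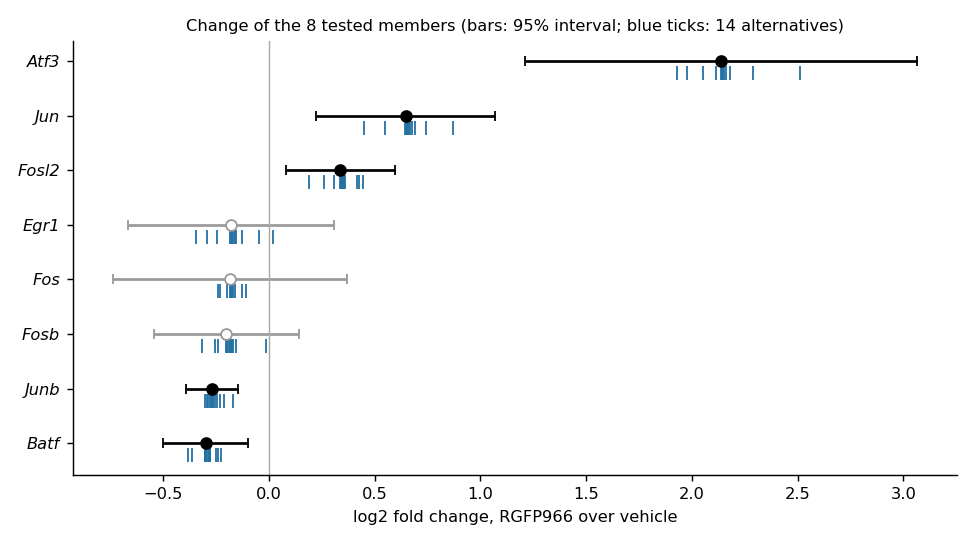
Log2 fold change (RGFP966 over vehicle) of the 8 tested members with its 95% interval (filled, called; open, not called); blue ticks are the values under 14 alternative settings. The interval of Atf3, from 1.21 to 3.07, lies farthest from 0, and those of Fos, Fosb and Egr1 span 0. Atf3 passed the filter on low counts only through its RGFP966 libraries.

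Atf3 had the largest fold change of the family and one of its lowest levels. Atf3 (chromosome 1, 191170296 to 191218039, minus strand, ENSMUSG00000026628), a stress-induced factor that as a homodimer represses transcription, had 3, 7 and 4 counts in vehicle libraries. It had 22, 17 and 16 counts in RGFP966 libraries. These correspond to 0.195, 0.428 and 0.256 CPM and to 1.61, 1.32 and 1.07 CPM, and the groups stood apart. Summed, vehicle held 14 counts (exact Poisson 95% interval 7.65 to 23.5) and RGFP966 55 (41.4 to 71.6). The log2 fold change was 2.14 ± 0.46 (SE; 95% interval 1.21 to 3.07; adjusted p = 0.000389). It was 1.93 to 2.51 in 14 alternatives, with adjusted p between 0.000276 and 0.00719 in the 13 that gave one; the DESeq2 Wald test gave 2.18 and no adjusted p. Atf3 passed the filter on low counts only through its RGFP966 libraries, so its interval and adjusted p are a description. Among the 957 tested genes with a mean under 1 CPM, 44 were called higher and 6 lower.

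Batf fell by a small amount. Batf (chromosome 12, 85686669 to 85709087, plus strand, ENSMUSG00000034266), which encodes a short leucine zipper protein that pairs with JUN proteins and works with IRF4 in lymphocytes, measured 17.0, 19.4 and 20.3 CPM in vehicle libraries. It measured 17.1, 15.02 and 13.99 CPM in RGFP966 libraries. The groups met at library 1 of each, and the other RGFP966 libraries lay below all vehicle libraries. The log2 fold change of Batf was -0.30 ± 0.10 (SE; 95% interval -0.50 to -0.10; adjusted p = 0.0236). The call was lost without vehicle library 2 (-0.28, adjusted p = 0.0713) or 3 (-0.24, adjusted p = 0.134) and without RGFP966 library 2 (-0.28, adjusted p = 0.0631) or 3 (-0.23, adjusted p = 0.169). It was also lost with the offset for GC content (-0.25, adjusted p = 0.0636) and by DESeq2 (Wald test, -0.29, adjusted p = 0.0817); the adjusted p ran from 0.0117 to 0.169. The longest Batf transcript is 56.7% G or C; of the 2216 tested genes between 55% and 60%, 18.1% were lower and 8.75% higher.

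Neither EGR gene passed the test. Egr1 (chromosome 18, 34859823 to 34864984, plus strand, ENSMUSG00000038418), a target of the serum response factor, measured 16.3, 15.3 and 22.7 CPM in vehicle libraries. In RGFP966 libraries it measured 12.8, 19.6 and 15.7 CPM. The spread within each group was wider than the difference between them: vehicle library 3 was highest and RGFP966 library 1 lowest. Its log2 fold change was -0.18 ± 0.20 (SE; 95% interval -0.67 to 0.31; adjusted p = 0.608), and 0.02 without vehicle library 3 (adjusted p = 0.943, the highest over 14 alternatives, which began at 0.132). Egr2 (ENSMUSG00000037868), which restrains T cell activation, had 4, 7 and 10 counts in vehicle libraries and 12, 10 and 9 in RGFP966 libraries, with overlap. With the filter removed its log2 fold change was 0.75 ± 0.53 (SE, adjusted p = 0.493), so no difference was detectable at this depth. Vehicle library 3 was the lowest vehicle library for Jun, Junb, Fosb and Fosl2 and the highest for Egr1, Egr2 and Batf. For Junb it was close to vehicle library 2 (56.33 against 56.37 CPM).

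**Figure D3:**
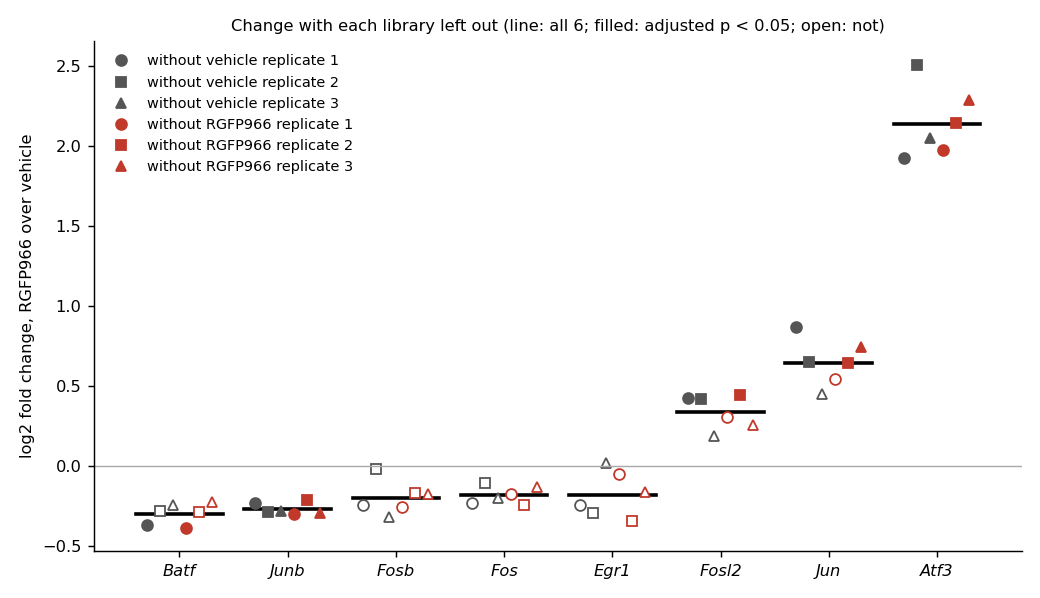
Log2 fold change (RGFP966 over vehicle) of the 8 tested members with each library left out in turn (grey symbols, a vehicle library left out; red, an RGFP966 library; filled, adjusted p under 0.05; the black line is the value with all 6). Junb and Atf3 are filled throughout, Jun, Fosl2 and Batf open in some positions, and Egr1 crosses 0 without vehicle library 3. Atf3 has low counts and with all 6 libraries passed the filter only through the RGFP966 group.

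By the root mean square difference of centred log2 CPM over the 6 libraries, among genes whose mean was 5 CPM or more, 1 gene was found closest to each called member. These were Golga1 for Junb (difference 0.02), Rffl for Jun (0.09), Fgf11 for Fosl2 (0.09), Gm31925 for Atf3 (0.28) and Cript for Batf (0.05). None of them is a gene of this family or of the lists below. For Batf, however, Hras of the MAP kinase list was nearly as close (0.048, against 0.046 for Cript). Closeness was measured on the same 6 libraries, so the fold changes of the closest genes were bound to be like those of the members. They were -0.28 for Golga1, 0.66 for Rffl, 0.43 for Fgf11, 1.65 for Gm31925 and -0.25 for Cript.

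**Figure D4:**
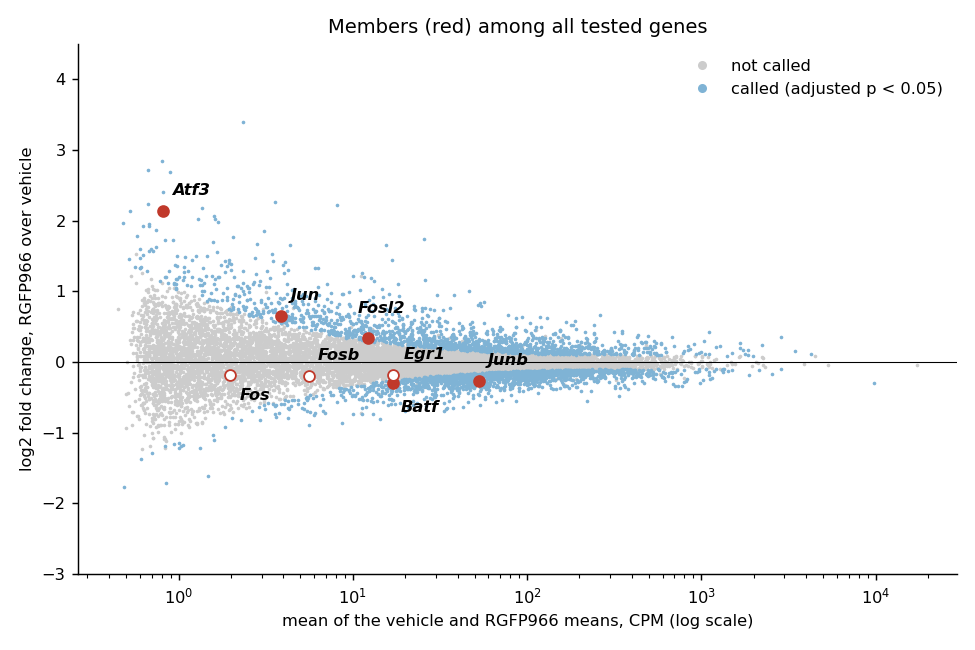
Log2 fold change (RGFP966 over vehicle) against level (mean of the group means, CPM, log axis) for 13484 tested genes, with the 8 tested members in red (filled, called). Atf3 lies at the low end of the axis, where called genes are mostly higher; Junb is the most abundant member and lies among called genes that were lower.

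Among other AP-1 leucine zipper genes, 1 of 10 tested rose and 3 fell. Beside this list and each list below, 11.4% of all genes tested were higher and 11.9% lower. These shares differed with level: 4.6% higher and 0.627% lower under 1 CPM, and 13.5% and 22.3% at 100 CPM or more. The list counts are therefore a description. Maf, a T cell factor of this class, measured 16.1, 14.6 and 14.7 CPM in the vehicle group and 23.0, 22.4 and 24.5 CPM after RGFP966, with log2 fold change 0.62 ± 0.09 (SE, adjusted p = 7.15e-07). All its RGFP966 libraries lay above its vehicle libraries. Nfe2l1, which regulates proteasome genes, fell by 0.19 on the log2 scale (adjusted p = 0.000332). The small MAF genes Mafg (-0.17, adjusted p = 0.00446) and Mafk (-0.20, adjusted p = 0.0163) were lower. The call of Mafk was lost without vehicle library 3 (adjusted p = 0.102), without RGFP966 library 2 (0.131), with the GC offset (0.0707) and by DESeq2 (Wald test, 0.0603); the lowest was 0.00964. The median of the 10 was -0.09. Fosl1, the remaining FOS gene, chosen after its values were seen, had means of 3.17 CPM in vehicle and 2.96 in RGFP966 libraries (log2 fold change -0.10, adjusted p = 0.809).

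Among CREB, ATF and C/EBP genes, 2 of 15 tested rose and 4 fell (median -0.06). The number that fell was 1 without RGFP966 library 3, and 2 without RGFP966 library 2 or in the DESeq2 Wald test; the number that rose was 1 without vehicle library 1 or RGFP966 library 3. Crem, which encodes a cyclic AMP responsive factor, rose from 11.4 ± 0.754 (SD, n = 3) to 16.2 ± 1.00 CPM, by 0.50 ± 0.11 (SE) on the log2 scale (adjusted p = 0.000417). Atf6, a sensor of endoplasmic reticulum stress, rose by 0.12 (adjusted p = 0.0135), a call lost without vehicle library 1 (0.0506) and without RGFP966 library 3 (0.0732), in a range from 0.00247. Atf1, a partner of CREB, fell by 0.19 (adjusted p = 0.00107). Atf5 measured -0.40 (adjusted p = 0.00698), but -0.30 without RGFP966 library 3 (adjusted p = 0.0853), in a range from 0.0016. The other 2 genes called lower, chosen after their values were seen, were Ddit3, a stress gene (-0.33, adjusted p = 0.014), and Atf6b, a relative of Atf6 (-0.16, adjusted p = 0.0167). Both lost the call without RGFP966 library 2 (adjusted p = 0.0772 for Ddit3 and 0.105 for Atf6b) or 3 (0.0926 and 0.0857) and in the DESeq2 Wald test (0.0531 and 0.0622). Ddit3 also lost it without vehicle library 3 (0.0781), and Atf6b with the GC offset (-0.09, adjusted p = 0.226); the lowest values were 0.0057 and 0.01. Of the Atf1 sequence 12.1% also occurs in other annotated genes.

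ATF3 is itself a target of the integrated stress response, and of 13 tested genes of that response 4 fell and 1 rose (median -0.07). Trib3, a pseudokinase induced by ATF4, measured 17.9, 20.4 and 19.9 CPM in the vehicle group and 12.7, 14.9 and 13.0 CPM after RGFP966 (log2 fold change -0.52 ± 0.10 SE, adjusted p = 8.11e-05). Psat1, an enzyme of serine synthesis, fell by 0.22 (adjusted p = 9.36e-06), and the cystine transporter gene Slc7a11 fell by 0.33 (adjusted p = 0.000404). Ddit4, which inhibits mTORC1, rose from 57.7 to 81.5 CPM (0.50, adjusted p = 2.78e-06). Atf4, picked for its role once its values were known, measured 430 ± 1.30 and 423 ± 2.57 CPM (SD, n = 3; adjusted p = 0.669). The remaining gene called lower, named after its values were seen, was Phgdh (-0.17, edgeR adjusted p = 0.000419). Of the Phgdh sequence 47.8% also occurs in other annotated genes. In these libraries Atf3 and Ddit4 were higher, Trib3, Psat1, Slc7a11 and Phgdh were lower, and 8 of the 13 were not called. Whether the rise of Atf3 has to do with this response was not tested.

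Among other immediate early genes, 7 of 24 tested rose and 1 fell, with a median of 0.05. Gadd45b, a stress and growth arrest gene, measured 12.8, 11.1 and 11.8 CPM in the vehicle group and 20.1, 17.5 and 19.6 CPM after RGFP966 (log2 fold change 0.68 ± 0.10 SE, adjusted p = 1.27e-06). Ier5 rose from 40.1 to 53.9 CPM (0.42, adjusted p = 3.31e-07), Trib1, a pseudokinase gene, by 0.33 (adjusted p = 1.80e-06) and the antiproliferative gene Btg1 by 0.27 (adjusted p = 8.10e-08). Dusp2, a phosphatase of MAP kinases, measured -0.35 (adjusted p = 0.019). Its call was lost without vehicle library 2 or 3 (adjusted p = 0.0564 and 0.0928), without RGFP966 library 1 or 3 (0.112 and 0.0923), and with the GC offset (0.0658) or the Wald test (0.0663), in a range from 0.00749 to 0.112. The remaining genes that rose, chosen after their values were seen, were Ier3 (0.64, adjusted p = 0.000161), Klf4 (0.83, adjusted p = 0.00196) and Btg2 (0.26, adjusted p = 0.0005), each called in all 14 alternatives. Of genes that did not pass the test, 2 were chosen after their values were seen: Ier2 measured 51.9 and 49.5 CPM (adjusted p = 0.449) and Nr4a1 29.0 and 25.0 CPM (adjusted p = 0.0526). Egr3, also chosen so, had 29 counts in vehicle and 14 in RGFP966 libraries and was not tested.

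**Figure D5:**
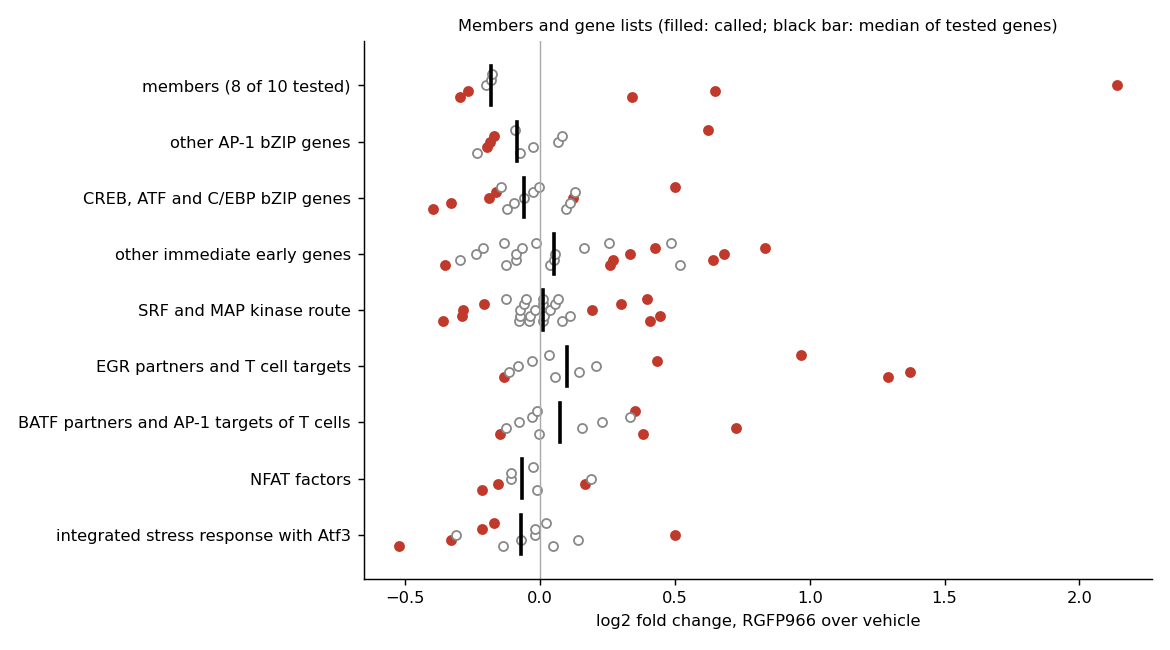
Log2 fold change (RGFP966 over vehicle) of the tested members and of the tested genes in 8 lists (filled, called; open, not called; black bar, median; vertical offsets only separate points). Called genes lie on both sides of 0 in each list, and 7 of the 8 called immediate early genes lie above it.

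Upstream of these genes, the serum response factor and MAP kinase list held 27 tested genes, of which 5 rose and 4 fell (median 0.01). Srf, the factor that binds CArG boxes of Fos and EGR genes, measured 99.0, 98.1 and 95.9 CPM in the vehicle group and 79.4, 81.3 and 79.2 CPM after RGFP966. The groups stood apart, and the change on the log2 scale was -0.29 ± 0.05 (SE, adjusted p = 5.27e-06); with the GC offset it was -0.17 (adjusted p = 0.00587, the highest over its alternatives, which began at 3.35e-07). Rasgrp1, which activates RAS after T cell receptor signals, fell from 385 ± 9.76 (SD, n = 3) to 299.9 ± 7.78 CPM (-0.36 ± 0.04 SE, adjusted p = 9.51e-11). Rps6ka1, a kinase downstream of ERK, rose by 0.44 (adjusted p = 4.38e-05), and the ternary complex factor gene Elk3 rose by 0.30 (adjusted p = 0.000107).

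Among EGR partners and T cell targets, 4 of 12 tested rose and 1 fell (median 0.10). Of the 4, Socs3 and Lag3 passed the filter on low counts only through their RGFP966 libraries, so the count and median are a description. The number that rose was 2 in the DESeq2 Wald test, without vehicle library 3 and without RGFP966 library 2. Dgka, a diacylglycerol kinase gene bound by EGR2 in unresponsive T cells, measured 6.90, 6.11 and 4.598 CPM in the vehicle group and 11.1, 12.7 and 10.8 CPM after RGFP966 (log2 fold change 0.97 ± 0.14 SE, adjusted p = 6.41e-07). The cytokine signalling inhibitor gene Socs1 rose by 0.43 (adjusted p = 0.000257). Socs3 measured 1.37 from 0.53 CPM (adjusted p = 0.0114), but 0.0598 without vehicle library 3 and 0.144 without RGFP966 library 2, in a range from 0.00844. Lag3, an inhibitory receptor gene chosen after its values were seen, had 6, 8 and 4 counts in vehicle and 9, 15 and 15 in RGFP966 libraries (1.29, adjusted p = 0.0407). Lag3 was called in 7 of 14 alternatives, with adjusted p from 0.0308 to 0.164; it lost the call without vehicle library 1 (0.0861), 2 (0.0551) or 3 (0.148) and without RGFP966 library 2 (0.164) or 3 (0.116). Sh2d2a, an adaptor gene, measured -0.14 (adjusted p = 0.0205) and was not called in 7 alternatives, among them without vehicle library 1 (adjusted p = 0.114) or 3 (0.12), or RGFP966 library 1 (0.0862) or 3 (0.0654), in a range from 0.00225. The EGR corepressor genes Nab1 and Nab2, chosen after their values were seen, had adjusted p of 0.705 and 0.477.

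Among BATF partners and AP-1 targets, 3 of 12 tested rose and 1 fell (median 0.07). Irf8, which encodes a factor that pairs with BATF, measured 5.67, 5.87 and 5.49 CPM in the vehicle group and 9.61, 9.21 and 9.37 CPM after RGFP966 (log2 fold change 0.73 ± 0.14 SE, adjusted p = 0.00011). Cd44, an adhesion receptor gene of activated T cells, rose from 140.0 to 182 CPM (0.38, adjusted p = 2.88e-10). The interleukin-2 receptor gene Il2ra measured 0.35 (adjusted p = 0.0406) and the cyclin gene Ccnd3 -0.15 (adjusted p = 0.0148). Both lost the call in the DESeq2 Wald test (adjusted p = 0.104 and 0.0581), with the GC offset (0.0517 and 0.102) and when any of 4 libraries was left out; Il2ra also lost it without the filter (0.0646). For Il2ra these were vehicle 1 and 2 and RGFP966 1 and 3 (adjusted p from 0.0658 to 0.184, in a range from 0.0297), and for Ccnd3 vehicle 1 and 3 and RGFP966 2 and 3 (0.0806 to 0.112, in a range from 0.000426). Among NFAT factors and calcineurin subunits, which act with AP-1 on shared sites, 2 of 8 tested fell and 1 rose (median -0.07). The calcineurin genes Ppp3r1 (-0.22, adjusted p = 0.000275) and Ppp3ca (-0.16, adjusted p = 0.000867) fell, and Nfat5 measured 0.17 (adjusted p = 0.00473; 0.0645 without RGFP966 library 3, in a range from 0.000401). Wdr92 overlaps 14.3% of Ppp3r1 exons.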

How the data were processed

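RNA was sequenced from 6 libraries of EL4 cells, 3 vehicle and 3 RGFP966. The deposited table holds raw counts of reads per Ensembl gene, made by the authors, per the submitters' processing notes with CASAVA, Bowtie2 2.2.3, HISAT2 2.1.0, TopHat2, HTSeq 0.6.0 and build mm10. Which tool did what, the annotation release and strand handling: not given in the sources used here. Symbols covered 99.46% of 51912 IDs; positions, exonic lengths, GC content and overlaps came from GENCODE M21 (GRCm38), counted from 1. Shared sequence is the share, in percent, of 50-base stretches of exons that another gene also holds.

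All genes were fitted in edgeR 4.0.16 (R 4.3.3) with group as the only term, filterByExpr at its defaults, trimmed mean of M values scaling and the robust quasi-likelihood F test. P-values were adjusted by Benjamini-Hochberg over 13484 genes, called under 0.05. SE is the log2 fold change, without its sign, divided by the root of F. CPM relates counts to scaled totals; marker sums use unscaled totals. Alternatives were other size factors, total count, no filter, DESeq2 1.42.0, limma-voom (limma 3.58.1), a replicate block, each library left out, and, added after seeing the data, an offset for GC content. The code was tested on simulated data.

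Members and lists were chosen with earlier results of these data known, so lists are described by counts and medians and not tested. Named are all members, Hdac3, the called genes of smallest adjusted p in each list, up to 4, plus up to 2 called in the minority direction, and the gene closest in pattern to each called member.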

Additional observations from a re-analysis of the deposited data

How the results depend on the processing

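Of the 14 alternatives, 1 was chosen after seeing the data, the offset for GC content. The number of members called higher was 3 and fell to 0 in the DESeq2 Wald test, which gave no adjusted p for Atf3 (unadjusted p = 0.00024), and ran from 1 to 3 with a library left out. The number called lower was 2, but 1 in the DESeq2 Wald test, 1 with the GC offset and 1 to 2 with a library left out. With a library left out the calls lost were those of Jun, Fosl2 and Batf, and with the GC offset that of Batf; the cause was not tested. Counts over all genes stayed within 1.5 times in every alternative, with 1238 to 1385 higher and 1116 to 1484 lower when a library was left out. Upper-quartile factors gave 1838 higher and 1270 lower, against 1543 and 1602. With the replicate block 1667 genes were higher and 1764 lower, and it changed no call among the members. Lower calls among other immediate early genes and among EGR partners and targets went from 1 to 2. In the serum response factor and MAP kinase list, higher calls went from 5 to 6 and lower calls from 4 to 5. Higher calls among BATF partners and AP-1 targets went from 3 to 4, and lower calls in the integrated stress response from 4 to 5. The labels do not say that the numbers pair the libraries, so the main fit did not pair them. Deviations of same-numbered libraries correlated at -0.015, 0.126 and -0.007 over 10000 genes. The value of 0.126, for library 2 of each group, was the highest of all vehicle and RGFP966 combinations. Deviations were centred within groups of 3 libraries, so these values cannot decide whether libraries were paired. Of 616 values of 44 called list genes, 560 kept their direction and call, 56 lost the call and 0 reversed. Depth limits Atf3, Jund, Egr2 and Fos, which had 100 counts or fewer in each group.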

Other observations

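Cytokine genes among the AP-1 targets of T cells spanned a wide range of levels; those named here were chosen after their values were seen, and counts are sums of 3 libraries. Il2, the cytokine gene on which AP-1 and NFAT were first studied together, had 7 counts in vehicle and 3 in RGFP966 libraries. Ifng had 1 and 4 counts, Csf2 5 and 2, and Ccl4 5 and 4. Fasl, from the list of EGR partners and T cell targets, had 3 and 5. Xcl1 had 0 in both groups, which allows up to 3 counts in each. These were not tested. Il10 had means of 26.5 and 24.3 CPM (vehicle, then RGFP966; edgeR adjusted p = 0.276), Tnf 10.7 and 12.5 CPM (edgeR adjusted p = 0.172) and Il4 1.04 and 1.31 CPM (edgeR adjusted p = 0.559). The activation marker gene Cd69 had means of 24.7 ± 1.72 and 24.6 ± 2.74 CPM (SD, n = 3; vehicle, then RGFP966) (edgeR adjusted p = 0.970), and Irf4, the lymphocyte partner of BATF, 48.2 ± 2.96 and 53.6 ± 3.52 CPM (edgeR adjusted p = 0.0611).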
